A study of Mus musculus with 15 samples.

Results

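Nuclear RNA of 8 genes tied to Parkinson disease or to the synuclein family was examined in the mouse ventral tegmental area: Sncb, Sncg, Lrrk2, Pink1, Park7, Vps35, Uchl1 and Atp13a2. They were taken by gene symbol from a table of 35976 genes, each matched 1 row, and all 8 passed the filter on low counts in every comparison. The samples came from male heterozygous DAT-Cre mice, in which Cre recombinase is made from the gene of the dopamine transporter, aged 8 to 12 weeks. All mice, controls included, received AAV5-DIO-KASH-HA, a Cre-dependent virus that puts an HA-tagged protein on the nuclear envelope, and 14 days were allowed for it to act. Each sample pooled tissue punches of 2 mice, and its nuclei were stained for HA and sorted into HA-positive (dopaminergic, DA) and HA-negative (non-dopaminergic, nDA) fractions.

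The 15 libraries fell into 4 groups. Food-trained mice had 7 days of lever training with a food reward and gave DA nuclei (n = 4) and nDA nuclei (n = 4). Maintenance mice had gone on to self-administer cocaine intravenously in daily 1 hour sessions, at 0.3 mg/kg per infusion for 5 days and 1.0 mg/kg per infusion for 10 days, and gave DA nuclei (n = 3). Abstinence mice, labelled Craving, had the same 15 days of cocaine followed by 21 days in the home cage without it, and gave DA nuclei (n = 4).

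Parkinson disease is marked by the loss of midbrain dopamine neurons, and rare inherited forms trace to single genes. These genes meet at a few sites in the cell: synucleins at the presynaptic terminal, the kinase LRRK2 and the retromer in vesicle traffic, the kinase PINK1 and the protein encoded by Park7 in the care of mitochondria and defence against oxidation, UCHL1 in ubiquitin turnover and ATP13A2 in the lysosome. Neurons of the substantia nigra are more exposed in the disease than those of the ventral tegmental area, which was sampled here.

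Total counts ran from 25813697 to 59046618 per library. Slc6a3, the dopamine transporter gene, stood at 2270 to 4500 CPM (counts divided by library size and scaled between libraries by TMM factors) in food-trained DA libraries and at 79.1 to 120 CPM in nDA libraries, and all 15 dopamine neuron markers were higher in DA nuclei, 13 of them past the threshold. The nDA libraries held glia as well as neurons: the summed level of 13 oligodendrocyte markers was 10100 to 23600 CPM there and 1780 to 2880 CPM in food-trained DA libraries, and that of 11 general neuron markers was 2600 to 3160 against 4440 to 5880 CPM. The neuron list was mixed: most of the gap in its sum was Syt1, at a mean of 1130 CPM in nDA and 3050 CPM in DA libraries, while 7 markers were higher and 4 lower in DA nuclei (median log2 fold change 0.21). Past the threshold 2 were higher, Syt1 and Tubb3, and 1 lower, Rbfox3, at 44.9 against 102 CPM. How log2 CPM changed per percent of transcript GC, here called the GC slope, was -0.0383 to -0.0223 in the 3 maintenance libraries and -0.0248 in nDA replicate 2. It was -0.0174 to 0.0199 in the other 8 DA libraries and 0.0206 to 0.033 in the other 3 nDA libraries. In all, 8 of the 15 slopes were negative, and the 4 lowest, from maintenance and nDA replicate 2, were next to that of food-trained DA replicate 2, at -0.0174. The labels give no library or sequencing batch.

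The genes differed widely in level. Per kilobase of the longest protein-coding transcript, Uchl1 was the most abundant in food-trained DA nuclei, at 244 ± 45.4 CPM per kb (SD, n = 4). Park7 at 66.0 ± 11.2, Atp13a2 at 65.3 ± 22.4, Sncb at 57.8 ± 24.2, Pink1 at 51.9 ± 12.9 and Sncg at 51.6 ± 18.4 CPM per kb followed, within each other's spread. Vps35 stood lower, at 22.1 ± 6.70, and Lrrk2 lowest, at 2.18 ± 2.41 CPM per kb. In nDA nuclei Sncg stood at 4.95 ± 2.57 CPM per kb, under Vps35 at 15.0 ± 3.34, and Park7 at 37.0 ± 7.54 stood under Sncb at 49.2 ± 6.18, Pink1 at 47.2 ± 21.1 and Atp13a2 at 46.5 ± 21.5. Lrrk2 was the lowest there too, at 2.48 ± 0.839 CPM per kb.

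**Figure D1:**
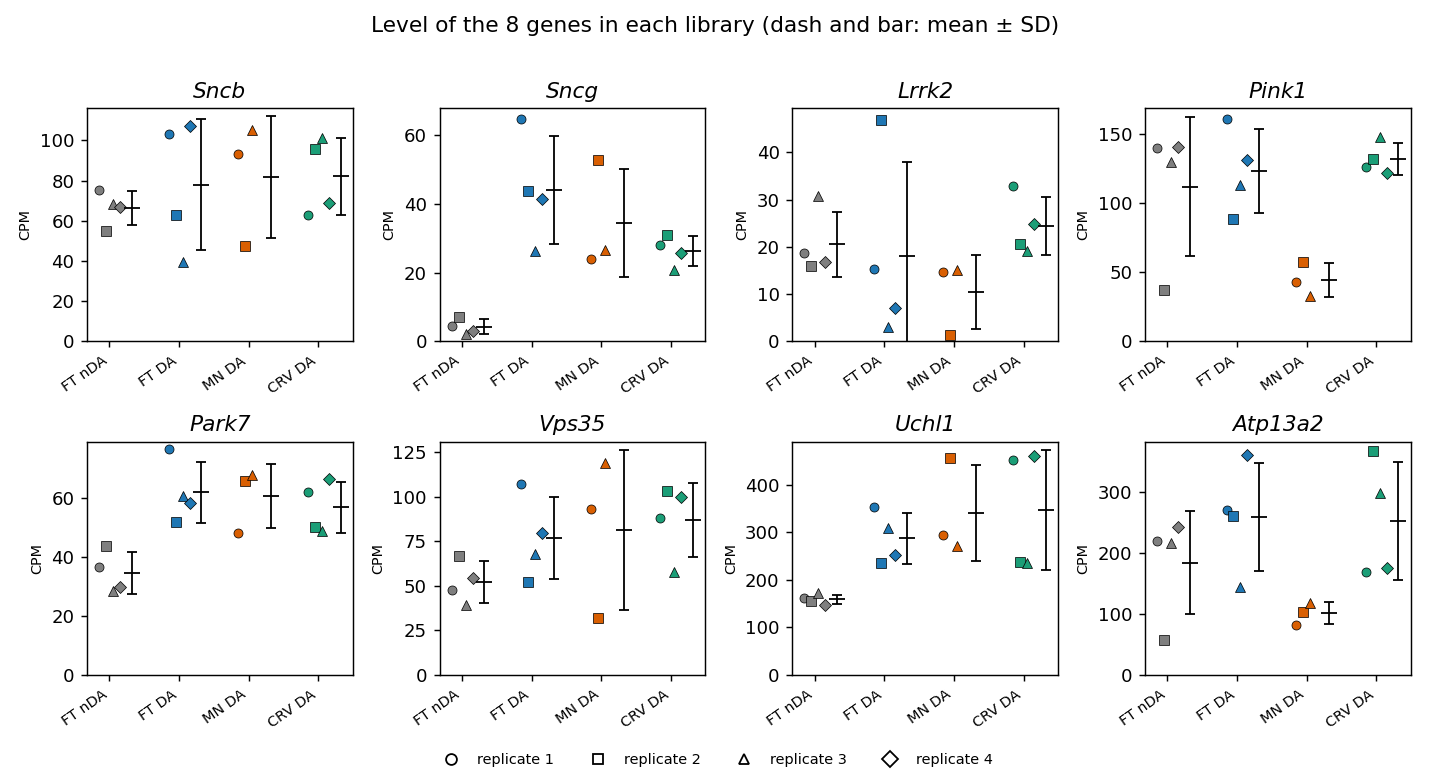
CPM of the 8 genes in each of the 15 libraries, 1 panel a gene, with a linear axis from 0. Symbols mark the replicate number, and the dash with its bar gives the mean ± SD of the group (n = 4, 3 for MN DA). FT is food-trained, MN maintenance and CRV abstinence. The bar of Lrrk2 in FT DA runs below 0 and is cut by the axis. Sncg is low in the 4 nDA libraries, and Pink1 and Atp13a2 are low in the 3 maintenance libraries and in nDA replicate 2.

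The first comparison set DA against nDA nuclei of food-trained mice, where 3 of the 8 genes were higher in DA nuclei and none was lower past an adjusted p of 0.05. The 3 were Sncg, Uchl1 and Park7, and their groups did not overlap. Across all 19786 genes tested, 12.8% passed, 3.63% as higher, 9.17% as lower, and 6.41% were higher with no overlap between the groups. The median log2 fold change was 0.54 over the 8 genes and -0.21 over all genes. The value over all genes depended on the filter. With at least 10 counts required in every library it was 0.05, and 916 of 12204 genes were called higher and 727 lower. Adjusted p-values are those of edgeR's quasi-likelihood test over all genes (Benjamini-Hochberg), two-sided. This fit left out the replicate number, which pairs DA with nDA libraries by a check given below. With that number as a block, Sncg and Uchl1 still passed and Park7 did not, and 3.92% of all genes passed.

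Synucleins are small proteins of the presynaptic terminal that bind lipid membranes. Sncg, which encodes gamma-synuclein, was the member that differed most between the populations. It held 64.6, 43.6, 26.4 and 41.4 CPM in the 4 food-trained DA libraries, and 4.48, 7.19, 2.24 and 2.96 CPM in the 4 nDA libraries, from 96 to 345 counts. Every DA library stood above every nDA library. The level was 10.5-fold higher in DA nuclei (log2 fold change 3.39, SE 0.48). Its edgeR adjusted p was 0.0067, and the call held whichever of the 8 libraries was left out. In bulk samples such as these, fewer nuclei of a type and less RNA per nucleus cannot be told apart.

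Sncb, which encodes beta-synuclein, did not separate the populations. It held 39.3 to 107 CPM in food-trained DA libraries and 55.1 to 75.2 CPM in nDA libraries, so that the DA range enclosed the nDA range. The log2 fold change was 0.24 (SE 0.31, edgeR adjusted p 0.722). Within a library the ratio of Sncg to Sncb, each per kilobase, was 0.615 to 1.1 in food-trained DA nuclei and 0.0519 to 0.207 in nDA nuclei. In the other DA groups it was 0.322 to 0.709 at abstinence and 0.406, 1.75 and 0.401 in the 3 maintenance libraries, of which replicate 2 was the highest of all 15.

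**Figure D2:**
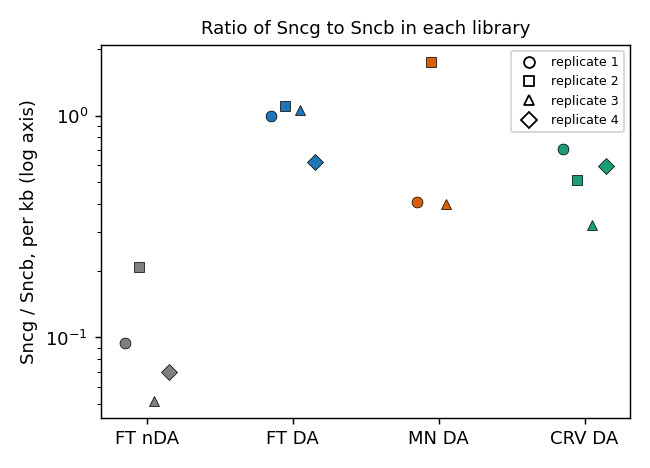
Ratio of Sncg to Sncb, each as CPM per kb of transcript, in each library (log axis). Each symbol is 1 library, and its shape gives the replicate number. The 4 nDA libraries lie between 0.0519 and 0.207, below the 11 DA libraries, which lie between 0.322 and 1.75.

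The start regions of both synuclein genes are shown because the pair split between the populations. They are bases before the transcription start, from RefSeq on GRCm38.p6, leaving out bases that GENCODE M21 annotates as part of the gene, and are given on the gene's strand. Sncg (ENSMUSG00000023064.4) lies on the minus strand of chromosome 14, and the window is chr14:34374790-34374919. Sncb (ENSMUSG00000034891.13) lies on the minus strand of chromosome 13, with the window chr13:54766596-54766845. Capitals mark matches, on either strand, to any of 5 motifs that were searched: the GC box GGGCGG, the core TGACG of the cyclic AMP response element, the TATA box with the letters TATAAA, the E-box with the letters CACGTG, and AAAGGTCA, which is the NBRE bound by Nr4a receptors. None of the 5 contains another on either strand.
Sncg: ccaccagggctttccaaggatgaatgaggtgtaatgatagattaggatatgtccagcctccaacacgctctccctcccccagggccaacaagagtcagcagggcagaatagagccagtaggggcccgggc
Sncb: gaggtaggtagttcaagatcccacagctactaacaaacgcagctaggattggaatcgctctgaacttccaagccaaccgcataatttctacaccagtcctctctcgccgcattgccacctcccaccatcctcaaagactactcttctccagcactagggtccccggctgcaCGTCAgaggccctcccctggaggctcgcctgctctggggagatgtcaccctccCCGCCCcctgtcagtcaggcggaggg
Over the 250 bases before the start, Sncg held 1 GC box, in the part not printed, and Sncb 1 GC box and 1 TGACG. Of 32851 such RefSeq windows, 32.7% held a GC box, 17.8% TGACG, 12.4% the TATA box, 6.02% the E-box and 1.34% the NBRE, and neither gene held any of these 3. A match describes the letters only.

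Uchl1 (chr5:66676091-66687234 on GRCm38, GENCODE M21) encodes an abundant neuronal enzyme that frees ubiquitin from small adducts. It held 352, 236, 309 and 252 CPM in food-trained DA libraries and 161, 156, 171 and 147 CPM in nDA libraries, with no overlap. The log2 fold change was 0.87 with SE 0.18, or 1.83-fold. The edgeR adjusted p was 0.0107, and this call too held whichever library was left out. The general neuron markers were mixed between the populations, as given above, and any part of theirs in this difference was not tested. The 5′ end of Uchl1, on the plus strand of chromosome 5, shares 295 exonic bases with the antisense gene Uchl1os. Uchl1os held at most 2.08% of the count of Uchl1 in any library.

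Park7 (chr4:150897133-150914437, minus strand) encodes a protein that protects cells against oxidative stress. It held 76.6, 52.0, 60.5 and 58.4 CPM in food-trained DA libraries and 36.7, 43.7, 28.3 and 29.8 CPM in nDA libraries. The groups did not overlap, and replicate 2 was the lowest of the DA and the highest of the nDA libraries. The log2 fold change was 0.85 (SE 0.23, 1.8-fold, edgeR adjusted p 0.0397). This call was near the threshold: it held in 3 of 8 fits with 1 library removed, with edgeR adjusted p from 0.0297 to 0.118, and was lost without nDA replicate 1, 3 or 4 or DA replicate 1 or 4. It was also lost without a filter on low counts (0.064), with at least 10 counts required in every library (0.0528) and with the replicate number as a block (0.131), while the log2 fold change stayed at 0.82 to 0.87. The block left the calls of Sncg (0.0149) and Uchl1 (0.0397).

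The other 4 genes did not pass between the populations. Vps35 (chr8:85260392-85299802, minus strand), the cargo-binding core of the retromer that returns receptors from endosomes, stood at 76.8 ± 23.3 CPM in DA and 52.0 ± 11.6 CPM in nDA nuclei (log2 fold change 0.57, SE 0.27, edgeR adjusted p 0.233), with overlap. Its 5′ end overlaps Orc6 on the other strand by 171 bases, and the count of Orc6 reached 51% of that of Vps35 in maintenance replicate 2, so reads of the shared stretch are uncertain. Lrrk2 (chr15:91673175-91816120, plus strand), a large kinase that phosphorylates Rab GTPases, had the highest coefficient of variation of the 8 in food-trained DA (110%) and maintenance (75.2%) libraries, though not in nDA (33.8%) or abstinence (25%) libraries. Its 4 food-trained DA libraries held 15.4, 46.9, 2.96 and 7.07 CPM, from 82 to 1647 counts, and the 4 nDA libraries 18.7, 15.9, 30.8 and 16.7 CPM. DA replicate 2 stood above every nDA library and the other 3 DA libraries stood below every one, and the difference was -0.17 (SE 0.75) on the log2 scale, at an edgeR adjusted p of 0.926. It became -1.27 (adjusted p 0.206) without DA replicate 2.

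Pink1, the kinase that marks damaged mitochondria for removal, and Atp13a2, a lysosomal pump for polyamines, also gave no call between the populations. Pink1 held 161, 88.3, 113 and 131 CPM in food-trained DA libraries and 140, 37.3, 130 and 141 CPM in nDA libraries. Atp13a2 held 270, 260, 144 and 360 CPM in DA and 219, 57.8, 216 and 243 CPM in nDA libraries. In both genes nDA replicate 2 lay far under the other 3 nDA libraries. The log2 fold change was 0.15 (SE 0.39, edgeR adjusted p 0.877) for Pink1 and 0.50 (SE 0.44, 0.569) for Atp13a2, and without nDA replicate 2 it was -0.15 and 0.20.

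**Figure D3:**
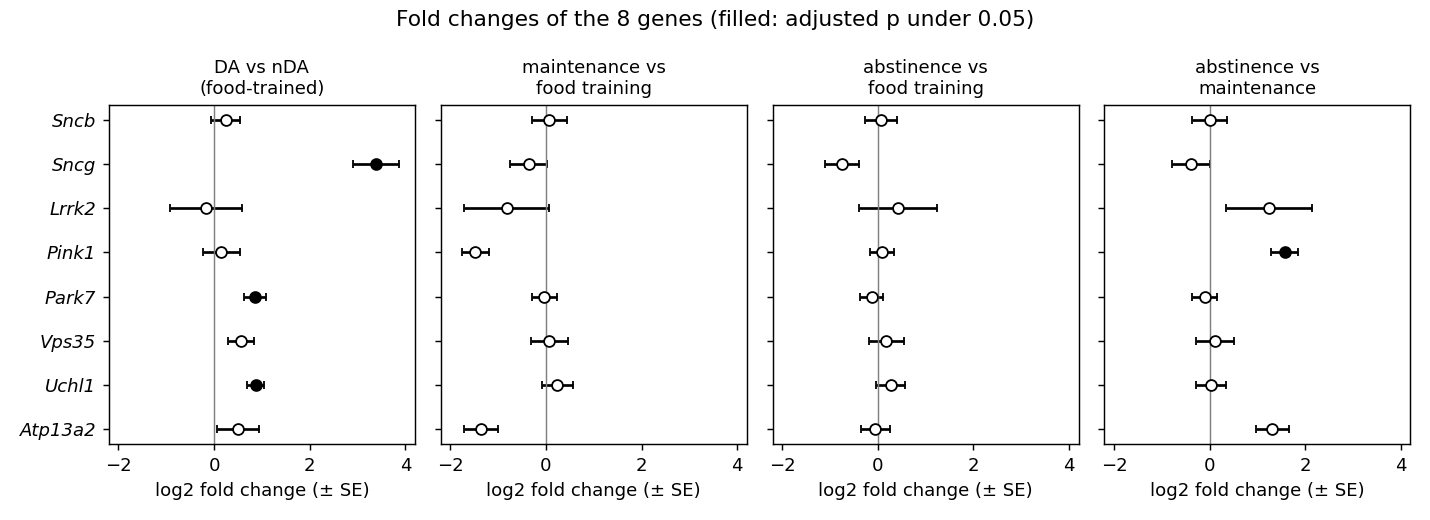
Log2 fold change ± SE of the 8 genes in the 4 comparisons, from edgeR. Filled points passed an adjusted p of 0.05 over all genes tested. Sncg, Park7 and Uchl1 are filled in the first panel and Pink1 in the last, while the panels of maintenance and of abstinence against food training hold none.

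Genes that work beside the 8 were read from 7 lists. Among 22 other genes linked to Parkinson disease, 3 were higher in DA nuclei and 0 lower past the threshold. They were Gch1, which makes the cofactor of tyrosine hydroxylase, at 36.1 ± 21.1 against 4.12 ± 0.294 CPM (log2 fold change 3.14), Rab39b, a vesicle GTPase (0.94), and Rit2, a neuronal GTPase (1.06), whose groups overlapped. Of 23 genes of antioxidant defence, the setting in which Park7 acts, 4 were higher and 0 lower. The median of the list was 0.70, against -0.21 over all genes and 0.05 over genes with at least 10 counts in every library. The 4 were Sod1, superoxide dismutase (log2 fold change 1.43), Gpx4 (1.06) and Gpx1 (1.55), which are glutathione peroxidases, and Txn1, thioredoxin (1.33).

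The remaining 5 lists held 0 to 2 calls each. Of 22 Lrrk2 relatives and Rab substrates, 2 were higher, the synaptic vesicle GTPases Rab3a (log2 fold change 1.04) and Rab3c (0.76), and 0 lower. Of 29 genes of the lysosome or of the P5 ATPase family of Atp13a2, 1 was higher, the sphingomyelinase gene Smpd1 (1.13), and 0 lower. In the mitophagy list around Pink1, 29 of 30 genes could be tested, 0 were higher and 2 lower, the autophagy receptor Nbr1 (-1.84) and the mitochondrial fusion gene Mfn1 (-1.53). In the list of ubiquitin genes around Uchl1, 0 of 18 were higher and 1 lower, the deubiquitinase Usp24 (-0.99). With the replicate number as a block, which cut the calls over all genes from 2534 to 775, 6 of the 13 calls on genes of the 7 lists held (Gch1, Rit2, Nbr1, Rab3a, Smpd1 and Sod1), and Atp6ap2 (0.93), of the lysosomal list, passed with the block and not without it. None of the 18 genes of the retromer and its partners around Vps35 passed by edgeR's quasi-likelihood test. The medians of these 5 lists ran from -0.10 to 0.35.

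The second comparison set cocaine maintenance against food training in DA nuclei. By edgeR's test 0 of the 8 genes passed, and 2 had an unadjusted p under 0.05, Pink1 and Atp13a2, both lower at maintenance with no overlap between the groups. Of all 19060 genes, 0.131% passed, 11.6% had an unadjusted p under 0.05, and 4.14% were lower with no overlap. DESeq2's test called Pink1 and Atp13a2, in a run that called 977 genes in all against 25 with edgeR. Markers of oligodendrocytes differed in the same comparison: 9 of 13 had a lower level at maintenance, with a median log2 fold change of -0.76, and their sum was 1170 to 1780 CPM against 1780 to 2880 CPM after food training. Among them edgeR called Olig1, which stood at 0 to 0.208 CPM at maintenance and 16.4 to 49.9 CPM after food training, and at most 2 of the 13 were at 0 in a maintenance library. Their part in the values of Pink1 and Atp13a2 was not tested.

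Pink1 held 42.8, 57.2 and 32.6 CPM in the 3 maintenance libraries, all under the lowest food-trained DA library, at 88.3 CPM. The log2 fold change was -1.48 (SE 0.28), a level 2.79-fold lower, with an edgeR adjusted p of 0.0626. Atp13a2 held 81.6, 103 and 118 CPM at maintenance, under the lowest food-trained value of 144 CPM. This was 2.56-fold lower, -1.36 on the log2 scale (SE 0.35), at an edgeR adjusted p of 0.174. With 1 library removed, Pink1 passed in 2 of 7 fits, without food-trained replicate 2 (edgeR adjusted p 0.0398) or without maintenance replicate 2 (0.0332). In the other 5 it did not pass, with edgeR adjusted p up to 0.27. Its log2 fold change ran from -1.75 to -1.30 over the 7 fits.

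Low values of both genes were also found in nDA replicate 2, a food-trained library, and whether these and the maintenance values share a cause was not tested. Across the 15 libraries, the 3 of maintenance and nDA replicate 2 held 32.6 to 57.2 CPM of Pink1 and the other 11 held 88.3 to 161 CPM. For Atp13a2 the ranges were 57.8 to 118 CPM and 144 to 367 CPM. These are the 4 libraries with the lowest GC slopes, and both genes have GC-rich transcripts, at 59% for Pink1 and 62.4% for Atp13a2. With the GC slopes removed, the log2 fold change at maintenance was -1.15 for Pink1 and -0.90 for Atp13a2 (edgeR adjusted p 0.127 and 0.396). With a term for these 4 libraries in a fit of all 15, which rests on nDA replicate 2 alone, it was 0.38 (SE 0.43) and 0.59 (SE 0.57). Maintenance and whatever these 4 libraries share cannot be told apart within DA nuclei.

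The other members overlapped between maintenance and food training, and the part of GC content in the values of any member was not tested beyond the fits above. Sncb, at 61.4% GC, held 93.4, 47.6 and 105 CPM at maintenance against 39.3 to 107 CPM after food training (log2 fold change 0.07, SE 0.37, edgeR adjusted p 0.995). In nDA replicate 2 it held 55.1 CPM, under the 66.9 to 75.2 CPM of the other 3 nDA libraries. Uchl1, at 56.8% GC, held 293, 455 and 270 CPM at maintenance against 236 to 352 CPM (0.24, SE 0.32, 0.906). Vps35, with the GC-poorest transcript of the 8 at 42.3%, held 93.1, 31.7 and 119 CPM against 52.3 to 107 CPM (0.07, SE 0.39, 0.995).

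**Figure D4:**
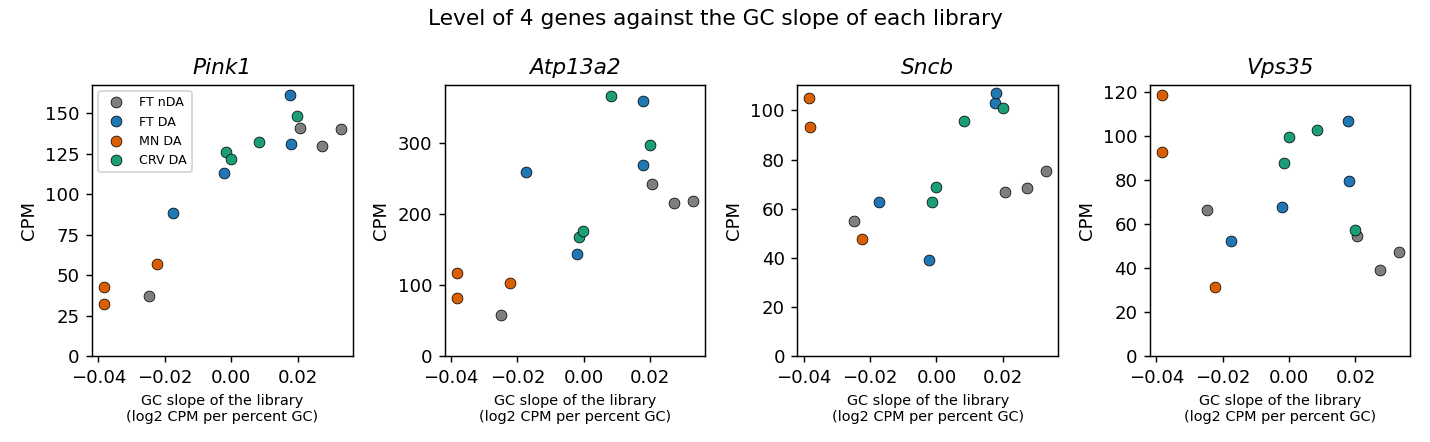
CPM of Pink1, Atp13a2, Sncb and Vps35 (linear axis from 0) against the GC slope of the same library (log2 CPM per percent GC). Each point is 1 of the 15 libraries, coloured by group. Pink1 is lowest, at 32.6 to 57.2 CPM, in the 4 libraries with the lowest slopes, where Sncb runs from 47.6 to 105 CPM and Vps35 from 31.7 to 119 CPM.

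The start regions of Pink1 and Atp13a2 are printed because these 2 genes had the low values described above. Their Pearson r of log2 CPM over the 15 libraries was 0.83, against 0.92 for Sncg and Park7 and 0.83 for Park7 and Uchl1. Over the 11 DA libraries the values were 0.78, 0.51 and 0.63, in the same order. The libraries share the splits described above. Pink1 (ENSMUSG00000028756.12) lies on the minus strand of chromosome 4, with the window chr4:138326308-138326546. Atp13a2 (ENSMUSG00000036622.15) lies on the plus strand of chromosome 4, with the window chr4:140986671-140986872. Source, build and capitals are as for the synuclein genes.
Pink1: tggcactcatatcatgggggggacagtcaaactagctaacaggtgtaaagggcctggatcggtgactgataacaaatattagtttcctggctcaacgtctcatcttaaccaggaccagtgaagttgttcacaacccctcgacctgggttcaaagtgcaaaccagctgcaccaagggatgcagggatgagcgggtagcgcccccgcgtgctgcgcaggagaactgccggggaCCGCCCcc
Atp13a2: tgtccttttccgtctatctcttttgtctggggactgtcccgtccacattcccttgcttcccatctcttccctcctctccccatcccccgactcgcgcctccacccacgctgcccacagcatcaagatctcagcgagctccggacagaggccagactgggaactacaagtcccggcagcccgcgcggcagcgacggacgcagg
Over the 250 bases before the start, Pink1 held 1 GC box, and Atp13a2 held 1 GC box and 1 TGACG in the part not printed. Their GC content over those bases was 57.2% and 65.2%, against a median of 52.4% over all windows.

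The other 3 genes also overlapped at maintenance. Sncg, at 56.6% GC, held 24.0, 52.6 and 26.6 CPM against 26.4 to 64.6 CPM after food training (log2 fold change -0.36, SE 0.39, edgeR adjusted p 0.871). Park7 held 48.0, 65.9 and 67.9 CPM against 52.0 to 76.6 CPM (-0.03, SE 0.26, 0.999). Lrrk2 held 14.6, 1.38 and 15.2 CPM (-0.82, SE 0.89, 0.866), the low value being 47 counts. Maintenance replicate 2 thus held the least Lrrk2, Vps35 and Sncb and the most Sncg, Uchl1 and Pink1 of the 3.

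Next, 21 days of abstinence were set against food training in DA nuclei. By edgeR 0 of the 8 genes passed, 0 had an unadjusted p under 0.05 and 0 had groups that did not overlap, against 0%, 4.3% and 3.34% of all 19060 genes, and DESeq2's test also called 0 of the 8. Pink1 was at 126, 132, 148 and 122 CPM at abstinence, within the food-trained range, and the log2 fold change was 0.09 (SE 0.25). Atp13a2 was at 168, 367, 298 and 176 CPM (-0.05, SE 0.31). The largest difference was in Sncg, at 28.1, 31.0, 20.6 and 25.7 CPM against 26.4 to 64.6 CPM in food-trained mice (-0.75, SE 0.36, edgeR p 0.0599 before adjustment and 1 after). All 4 abstinence libraries lay under 3 of the 4 food-trained libraries, and 2 of them also under the lowest, at 26.4 CPM. Of the 15 dopamine neuron markers, 14 were lower at abstinence (median -0.28 against 0.04 over all genes), 0 past the threshold, and their sum was 6850 to 11000 CPM against 8030 to 15100 CPM. Their part in the value of Sncg was not tested.

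The abstinence libraries fell into pairs in several genes, and in library measures too. Sncg, with the values above, and Vps35, at 87.9, 103, 57.6 and 99.9 CPM, did not follow these pairs. How many of all genes split this way was not counted. For Uchl1, replicates 1 and 4 held 452 and 461 CPM and replicates 2 and 3 held 237 and 236 CPM. Replicates 1 and 4 also held more Park7, at 62.0 and 66.3 against 50.1 and 48.8 CPM, and more Lrrk2. Replicates 2 and 3 held more Atp13a2, more Pink1 and more Sncb, the last at 95.9 and 101 against 62.9 and 68.8 CPM. They also had higher summed neuron markers, at 5700 and 5890 against 3970 and 3580 CPM, and higher GC slopes, at 0.00831 and 0.0199 against -0.00144 and -0.00012. Their total counts were higher too, at 59046618 and 57176080 against 42703030 and 37314334. The part of these measures in the values was not tested. Lrrk2 was at 32.8, 20.7, 19.1 and 24.9 CPM (0.42 against food training, SE 0.81). It went from 0.07 without food-trained replicate 3 to 1.51 without food-trained replicate 2. Park7 (-0.13, SE 0.24), Vps35 (0.18, SE 0.37), Sncb (0.07, SE 0.34) and Uchl1 (0.27, SE 0.30) each differed by less than their SE.

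The last comparison set abstinence against maintenance and shares the maintenance libraries with the second. By edgeR 1 of the 8 genes passed, Pink1, and 3 of 8 were higher at abstinence with no overlap, Pink1, Atp13a2 and Lrrk2, against 0.178% called, 0.168% called as higher and 7.68% higher with no overlap among all genes. The mean of Pink1 was 132 ± 11.6 CPM in the 4 abstinence libraries and 44.2 ± 12.4 CPM in the 3 of maintenance, 2.98-fold higher (log2 fold change 1.57, SE 0.28, edgeR adjusted p 0.0434). The call held in 1 of 7 fits with 1 library removed, the one without maintenance replicate 2 (0.0304), and the edgeR adjusted p was 0.084 to 0.235 in the other 6. With the GC slopes removed the log2 fold change was 1.25 (0.0963) and with upper quartile scaling 1.52 (0.0589). The term for the 4 libraries with low GC slopes changed the direction, to -0.29 (SE 0.43). It rests on nDA replicate 2 alone, a library itself low in Pink1, so this change is no check of the call. For Atp13a2 the log2 difference was 1.31 (SE 0.35, adjusted p by edgeR 0.21), for Lrrk2 it was 1.24 (SE 0.90, 0.811), and the other 5 genes lay between -0.39 and 0.11. Olig1 was called here too, at 27.2 to 50.8 CPM in the abstinence libraries, and 9 of the 13 oligodendrocyte markers were higher at abstinence (median 0.46), whose part in the value of Pink1 was not tested.

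In the 3 comparisons of stages, 0 genes of the 7 lists passed by edgeR. The median log2 fold change of the lists ran from -0.18 to 0.22 at maintenance against food training, from -0.16 to 0.16 at abstinence against food training and from -0.10 to 0.28 at abstinence against maintenance, where those of all genes were -0.01, 0.04 and 0.05. The list of antioxidant genes had 10 genes higher and 13 lower at maintenance and 8 higher and 15 lower at abstinence, each against food training. The list around Pink1 had 18 of 30 genes higher in both. These comparisons share the food-trained libraries.

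For each gene the pattern over the 15 libraries was set beside that of 18895 others by Pearson's r of log2 CPM, as a description. The closest to Sncg was Rpph1 (r = 0.965), the RNA of ribonuclease P. The closest to Park7 were Rpl37a (0.94), of the ribosome, and Atp5k (0.934), of the ATP synthase, and the closest to Vps35 were Uqcrfs1 (0.921), of respiratory complex III, and Nhp2l1 (0.917). The closest to Pink1 were Rap1gap (0.965) and Tmem145 (0.964), which stood at 36.5 ± 14.8 and 24.0 ± 2.83 CPM at maintenance against 208 ± 74.1 and 182 ± 28.9 CPM after food training. Those to Atp13a2 were Syvn1 (0.965), an endoplasmic reticulum ubiquitin ligase, and Cbarp (0.96), at 75.7 ± 17.9 and 199 ± 29.8 CPM at maintenance against 232 ± 69.3 and 632 ± 247 CPM. Uchl1 was closest to Ttc6 (0.934) and Zfand2b (0.929), Sncb to Susd4 (0.923) and Slc46a1 (0.912), and Lrrk2 to Zbtb9 (0.927) and Cd164l2 (0.891).

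Ordered by group mean, Sncg, Park7 and Uchl1 each had the 3 DA groups on top, overlapping one another, and the nDA group below them with no overlap to the DA group just above it. Pink1 and Atp13a2 had maintenance at the bottom, and it overlapped the nDA group above it only through nDA replicate 2. In Sncb, Vps35 and Lrrk2 every pair of neighbouring groups overlapped.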

How the data were processed

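The authors deposited whole-number counts per gene for 15 libraries. Per the submitters' processing notes, Trim Galore 0.6.7, cutadapt 1.18, STAR 2.7.10a, StringTie 2.1.5, DESeq2 1.38.3 and the builds mm10 and GRCm38 were used, with no role given for each. Annotation and strand are not given in the sources used here. A second deposited table, named as normalized, held the same counts in 10 libraries (0 cells differed) and was not used. Per the labels' protocols, RNA came from sorted nuclei and libraries from a low-input kit that amplifies cDNA, so precision from counts covers counting error only.

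Here, CPM were scaled with TMM factors of all 15 libraries. Genes were kept by filterByExpr (minimum count 10) and tested with edgeR 4.0.16 (quasi-likelihood F-test, two-sided) in R 4.3.3, on the 8 food-trained libraries for the populations and on all 11 DA libraries for the stages. An SE is the log2 fold change divided by the square root of F. GC content and length are of the longest protein-coding GENCODE M21 transcript per symbol, or of the longest of any type where there is none (26763 symbols matched directly, 560 through an older symbol). This definition replaced the longest of any type after results were seen, because that took retained-intron models for Vps35 and Atp13a2, and both are given as alternatives. GC slopes rest on 8353 genes whose average log2 CPM (prior count 2) exceeded 4. Scripts were tested on simulated data.

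The 8 genes, the lists and the tests were chosen with earlier results of these data known. Named genes are the 8, up to 4 genes per list past the threshold, and for each of the 8 the 2 most similar known genes, of which 1 is not reported here. The numbers of food-trained replicates pair DA with nDA libraries by a check of the data: deviations from the group mean correlated at 0.12, 0.13, 0.26 and 0.24 between same-numbered libraries, and each was closest to its own number. Alternatives were DESeq2 1.42.0, other scalings and filters, leaving out a library, a replicate block, GC slopes removed and a term for the 4 libraries with low GC slopes.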

Additional observations from a re-analysis of the deposited data

Results flagged for a closer look

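In a group of 4 libraries, a value far from the other 3 was looked for in 24 sets (8 genes in the 3 groups of 4), by Dixon's ratio of the gap to the range at its 95% critical value, which chance passes in about 1 of 20 sets. It found 2 values, both in nDA replicate 2. Pink1 stood there at 37.3 CPM against 130 to 141 CPM in the other 3 nDA libraries, with a ratio of 0.897. Atp13a2 stood there at 57.8 CPM against 216 to 243 CPM, with a ratio of 0.853. The library's GC slope was -0.0248 against 0.0206 to 0.033 in the other 3, and its part in these values was not tested beyond the fits given above.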

How the results depend on the processing

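Of the log2 fold changes of the 8 genes recomputed under alternatives, 479 kept direction and side of the threshold, 47 changed direction, and 6 gained and 21 lost a call, 1 of these 21 with a change of direction. The 32 levels moved by less than their SD. With few pools per group, and Lrrk2 at 47 to 1647 counts in DA libraries, small differences could not be resolved.

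Between DA and nDA nuclei, 2534 genes were called. There were 1643 with at least 10 counts in every library (916 higher, 727 lower) and 3883 with DESeq2's test (1505 higher, 2378 lower). The replicate block gave 775 (413 higher, 362 lower) and moved the median of all genes from -0.21 to -0.60, and the block with GC slopes removed, added after seeing the data, gave 843. Without any filter that median was -0.53, and with at least 10 counts in every library it was 0.05. Both filters and both blocked fits ended the call of Park7 and no other call of the 8 genes there.

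At maintenance against food training, 25 genes and 0 of the 8 were called. With at least 10 counts in every library it was 109 and 1, with DESeq2's test 977 and 2, and with the term for the 4 libraries of low GC slope, or with the replicate block, 0 genes. At abstinence against food training DESeq2's test called 140 genes. At abstinence against maintenance, 34 genes and 1 of the 8 were called. It was 22 and 0 with upper quartile scaling, 69 genes with at least 10 counts in every library, 793 and 2 with DESeq2's test, 2 and 0 with the replicate block, 1 and 0 with the term, and 15 and 0 with all 15 libraries without the term (added later). With GC slopes removed, by either transcript definition, 0 of the 8 passed. Stage numbers did not pair the libraries: same-numbered libraries correlated at -0.35 to 0.11.

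Directions changed at maintenance against food training for Pink1 (0.38), Atp13a2 (0.59) and Vps35 (-0.45) with the term, for Park7 with upper quartile scaling or the block (0.01 each), and with GC slopes removed for Park7 (0.07, or 0.09 by the longest transcript of any type) and Vps35 (-0.25, or -0.42). At abstinence against maintenance they changed with the term for Sncg (0.78), Pink1 (-0.29), Park7 (0.39) and Atp13a2 (-0.64), and for Uchl1 with upper quartile scaling (-0.03), the block (-0.09) and GC slopes removed (-0.20). The term rests on nDA replicate 2 alone, which was low in Pink1 and Atp13a2. The cause of these changes was not tested.

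Leaving out 1 library gave 1900 to 3740 genes and 2 to 3 of the 8 between DA and nDA nuclei, 5 to 78 and 0 to 1 at maintenance against food training, and 6 to 73 and 0 to 1 at abstinence against maintenance. In both of the latter the lowest count came without maintenance replicate 1 (in the last also without abstinence replicate 3) and the highest without maintenance replicate 2. Directions depended on 1 library for Lrrk2 (-1.27 to 0.22) and Pink1 (-0.15 to 0.30) between DA and nDA nuclei. At maintenance against food training this held for Sncb (-0.15 to 0.31), Lrrk2 (-1.21 to 0.25), Park7 (-0.13 to 0.12), Vps35 (-0.31 to 0.42) and Uchl1 (-0.07 to 0.39). At abstinence against food training it held for Sncb (-0.15 to 0.25), Pink1 (-0.04 to 0.24) and Atp13a2 (-0.27 to 0.15), and against maintenance for Sncb (-0.24 to 0.22, from 0.00 with all libraries), Sncg (-0.61 to 0.09), Vps35 (-0.25 to 0.49) and Uchl1 (-0.15 to 0.33).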
